A study of Mus musculus with 12 samples.

Results

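The alpha-arrestins are adaptor proteins with an arrestin fold and, in most members, short proline-rich motifs that bring ubiquitin ligases of the NEDD4 family to proteins of the cell membrane. The family genes followed here were *Txnip*, *Arrdc1*, *Arrdc2*, *Arrdc3*, and *Arrdc4*, which are 5 of the 22456 genes listed. They were chosen by symbol and with their RPKM values (read counts scaled to the length of the transcript and to the mapped reads of the library) in these libraries already known, so their levels and the differences between their groups are given as a description, without a test. The libraries came from livers of 12 male BALB/cByJ mice aged 2 to 8 months, with 3 mice in each of 4 groups. *Lpin1*-/- mice carry the fatty liver dystrophy (fld) allele in every tissue and lack lipin 1, a phosphatidic acid phosphatase and transcriptional coactivator, and *Lpin1*+/+ mice were their wild-type littermates. Fasted mice of each genotype were singly housed without food for 16 hours, and refed mice then had chow for 5 hours, so the feeding state cannot be told apart from the later hour of sampling. All groups were fasted at a cooler temperature than that at which they were reared, and the sources used here name no other treatment.

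*Txnip* encodes a protein that binds and inhibits thioredoxin and that promotes the uptake of glucose transporters from the cell surface. Its transcription is raised by glucose through the Mondo factors (MondoA, encoded by *Mlxip*, and ChREBP, encoded by *Mlxipl*) and their partner Mlx, and *Arrdc4* is its closest relative and shares this regulation. *Arrdc3* takes part in the sorting and uptake of membrane receptors, *Arrdc1* recruits Tsg101 of the ESCRT machinery to the cell membrane and drives the release of small vesicles, and *Arrdc2* is the least studied of the 5. In liver, *Txnip* is known as a gene that responds to fasting, glucose, and glucocorticoids.

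On GRCm38, *Txnip* lies on chromosome 3 from 96557957 to 96561883 on the plus strand, and the antisense gene *Gm15441* overlaps it. *Arrdc1* lies on chromosome 2 from 24925352 to 24935252 (minus strand), *Arrdc2* on chromosome 8 from 70835129 to 70839720 (minus strand), *Arrdc3* on chromosome 13 from 80883384 to 80896042 (plus strand), and *Arrdc4* on chromosome 7 from 68736995 to 68749241 (minus strand). A noncoding transcript on the opposite strand, *1700023H06Rik*, overlaps *Arrdc3*. The library kit kept the strand, but whether strand was used in counting is not given in the sources used here, so reads of *Txnip* and *Arrdc3* cannot be told apart from those of the antisense partners.

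The start regions of *Txnip* and *Arrdc4* are shown because these members were both higher in fasted *Lpin1*-/- liver. Each line gives the 250 bases before the RefSeq transcription start (GRCm38.p6), written 5′ to 3′ on the strand of the gene. Capitals mark, in *Txnip*, a forkhead motif (GTAAACA) and a pair of CACGAG half-sites 5 bases apart, and in *Arrdc4* the E-box CACGTG.
Txnip (chr3:96557707-96557956, plus strand): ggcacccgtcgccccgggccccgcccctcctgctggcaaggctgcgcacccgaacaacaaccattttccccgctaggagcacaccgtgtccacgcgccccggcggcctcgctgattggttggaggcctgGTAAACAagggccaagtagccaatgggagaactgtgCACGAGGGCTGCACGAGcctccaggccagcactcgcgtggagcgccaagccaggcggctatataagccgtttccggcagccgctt
Arrdc4 (chr7:68749239-68749488, minus strand): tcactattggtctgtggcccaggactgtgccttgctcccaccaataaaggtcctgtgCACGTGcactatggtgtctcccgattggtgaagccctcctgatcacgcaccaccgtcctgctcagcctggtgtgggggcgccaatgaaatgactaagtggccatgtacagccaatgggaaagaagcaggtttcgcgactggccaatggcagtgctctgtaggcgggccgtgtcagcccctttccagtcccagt
These motifs were chosen after the windows had been read, and each was sought on both strands in windows from 250 bases before to 50 bases after a start. All 5 members had a window, and *Arrdc3* had 3, which made 7 windows. The forkhead motif of *Txnip* lay at positions -121 to -115 from the start and the CACGAG pair at -85 to -69. The E-box of *Arrdc4* lay at -193 to -188. CACGTG was present in 7.15% of all 32851 windows and GTAAACA in 3.65%, whereas the CACGAG pair was found only in the *Txnip* window, from which its letters were taken. The windows of *Arrdc1*, *Arrdc2*, and *Arrdc3* held none of these 3 motifs. CCAAT, not capitalized here, was present in 37.4% of windows and occurred 6 times in *Arrdc4*, 3 times in *Arrdc2*, 2 times in *Txnip*, once in each of 2 *Arrdc3* windows, and not at all in *Arrdc1*. A match describes letters and not a bound site.

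As a check of the genotype, *Lpin1* was at 0.0368 to 0.0597 RPKM in fasted and 0.00573 to 0.0238 RPKM in refed *Lpin1*-/- liver. In *Lpin1*+/+ liver it was at 0.726 to 22.0 RPKM in fasted and 0.784 to 2.92 RPKM in refed libraries, so the genotypes did not overlap. Even so, the fit over all genes used below (limma, adjusted p under 0.05) did not call *Lpin1* between genotypes. Its log2 difference was -2.19 (SE 0.72) in fasted and -1.55 (SE 0.72) in refed liver. A gene that did not pass is thus not shown to be unchanged. Relative depth was recovered from ratios of low RPKM values, and the deepest library was 1.34 times as deep as the shallowest. The summed RPKM of 8 hepatocyte markers was 38550 to 86000 in the 12 libraries. Markers of adipocytes (at most 0.255 summed RPKM) and skeletal muscle (at most 0.232) were close to 0. Library 2 of refed *Lpin1*+/+ stood apart, with the highest level of 3 of 6 Kupffer cell markers, and library 1 of fasted *Lpin1*-/- had the highest summed level of that list (501 RPKM). Summed Kupffer cell markers were 103 to 209 RPKM in fasted *Lpin1*+/+, 210 to 501 in fasted *Lpin1*-/-, 62.4 to 411 in refed *Lpin1*+/+, and 66.4 to 151 in refed *Lpin1*-/-. Stellate cell markers were 64.5 to 152, 190 to 283, 69.2 to 192, and 154 to 195 RPKM in the same order of groups, and sinusoidal endothelial markers 18.6 to 44.0, 37.9 to 50.7, 22.2 to 47.3, and 30.2 to 42.4. Cholangiocyte markers were 1.39 to 4.13, 2.55 to 21.1, 3.40 to 6.94, and 2.33 to 3.44 RPKM, and lymphocyte markers 1.03 to 3.25, 1.97 to 5.22, 0.608 to 12.2, and 0.877 to 1.85. In bulk liver, fewer cells of a type and less RNA per cell cannot be told apart, and the part of these cell types in the results below was not tested.

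*Txnip* was the most abundant member in fasted *Lpin1*-/- liver, where its mean level was 265 ± 133 RPKM (SD, n = 3) against 24.8 ± 5.77 in fasted *Lpin1*+/+ liver, 10.7 times as high. The libraries of fasted *Lpin1*+/+ liver had 27.5, 18.1, and 28.7 RPKM, and those of fasted *Lpin1*-/- liver had 181, 196, and 418 RPKM. After refeeding, *Lpin1*+/+ libraries had 14.3, 19.4, and 12.2 RPKM and *Lpin1*-/- libraries had 17.0, 36.0, and 31.2 RPKM. All 3 fasted *Lpin1*-/- libraries were above every other library, with a gap between 36.0 and 181 RPKM, whereas the remaining 3 groups overlapped their neighbors in the order of means (refed *Lpin1*+/+, fasted *Lpin1*+/+, refed *Lpin1*-/-). On the log2(RPKM + 1) scale, fasted *Lpin1*-/- exceeded fasted *Lpin1*+/+ liver by 3.29 (SE 0.36). Refed minus fasted was -3.15 (SE 0.36) in *Lpin1*-/- and -0.66 (SE 0.36) in *Lpin1*+/+, and the feeding responses differed by -2.49 (SE 0.51). In refed liver the genotypes differed by 0.79 (SE 0.36), and their ranges overlapped.

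**Figure D1:**
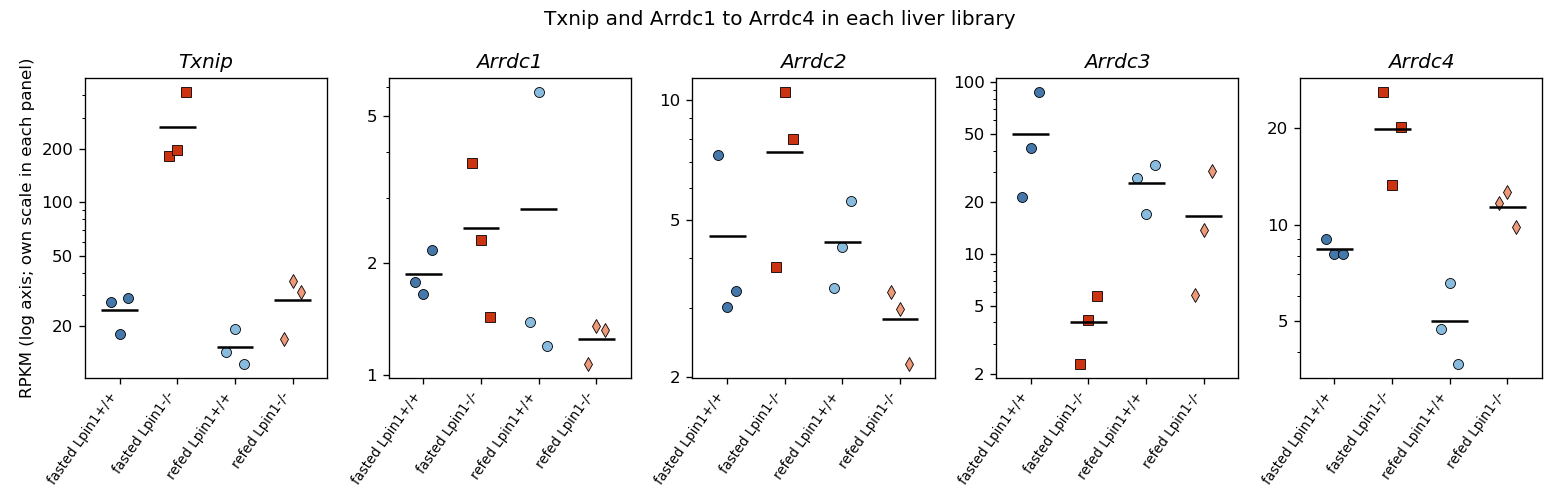
RPKM of the 5 genes in each library, on log axes with a separate scale for each gene. Points are libraries (3 per group) and lines are group means. *Txnip* was at 181 to 418 RPKM in fasted *Lpin1*-/- liver and *Arrdc3* at 2.28 to 5.73 RPKM, the highest and the lowest group of each.

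*Arrdc3* had the opposite arrangement. It was the most abundant member in fasted *Lpin1*+/+ liver by its mean (50.3 ± 34.1 RPKM, SD, n = 3) and stood at 4.04 ± 1.72 RPKM in fasted *Lpin1*-/- liver, 12.4 times lower. Fasted *Lpin1*+/+ libraries had 21.5, 41.4, and 87.9 RPKM, and fasted *Lpin1*-/- libraries had 2.28, 4.11, and 5.73 RPKM. Refed *Lpin1*+/+ libraries had 27.6, 17.1, and 33.0 RPKM, and refed *Lpin1*-/- libraries had 5.75, 13.7, and 30.5 RPKM. All fasted *Lpin1*-/- libraries were below every other library, by a margin of 5.73 to 5.75 RPKM at the closest, and the other 3 groups overlapped one another. The log2 difference between the genotypes was -3.18 (SE 0.58) in fasted and -0.83 (SE 0.58) in refed liver. Refed minus fasted was 1.60 (SE 0.58) in *Lpin1*-/- and -0.76 (SE 0.58) in *Lpin1*+/+ liver, a difference between responses of 2.35 (SE 0.82). The refed genotype difference was -0.27 without library 1 and -1.38 without library 3 of refed *Lpin1*-/-, and without the latter the refeeding value in *Lpin1*-/- was 1.04. The refeeding value in *Lpin1*+/+ liver was -0.25 without library 3 and -1.24 without library 1 of fasted *Lpin1*+/+, and -0.50 without library 2 of refed *Lpin1*+/+. The ratio of *Txnip* to *Arrdc3* RPKM was 0.326 to 1.28 in fasted *Lpin1*+/+, 47.7 to 79.3 in fasted *Lpin1*-/-, 0.370 to 1.13 in refed *Lpin1*+/+, and 1.02 to 2.95 in refed *Lpin1*-/- libraries.

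*Arrdc4*, the closest relative of *Txnip*, was higher in *Lpin1*-/- liver in both feeding states. Its levels in fasted *Lpin1*+/+ libraries were 9.02, 8.10, and 8.10 RPKM, and those in fasted *Lpin1*-/- libraries were 26.0, 13.3, and 20.2 RPKM. Refed *Lpin1*+/+ libraries had 4.73, 6.58, and 3.66 RPKM, and refed *Lpin1*-/- libraries had 11.7, 12.7, and 9.80 RPKM. The 4 groups did not overlap at any boundary, in the order refed *Lpin1*+/+ (4.99 ± 1.48 RPKM, SD, n = 3), fasted *Lpin1*+/+ (8.41 ± 0.530), refed *Lpin1*-/- (11.4 ± 1.45), and fasted *Lpin1*-/- (19.8 ± 6.35). The genotypes differed by 1.10 (SE 0.25) on the log2 scale in fasted and 1.07 (SE 0.25) in refed liver. Refed minus fasted was -0.68 (SE 0.25) in *Lpin1*+/+ and -0.71 (SE 0.25) in *Lpin1*-/- liver, and the responses differed by -0.03 (SE 0.35). Thus the genotype difference of *Arrdc4* was of similar size before and after refeeding, where that of *Txnip* was 3.29 and 0.79.

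*Arrdc2* was at 2.16 to 10.5 RPKM over the 12 libraries. In fasted liver, *Lpin1*+/+ libraries had 7.28, 3.01, and 3.31 RPKM and *Lpin1*-/- libraries had 3.79, 10.5, and 7.97 RPKM. Refed *Lpin1*+/+ libraries had 3.37, 4.26, and 5.57 RPKM, and refed *Lpin1*-/- libraries had 3.27, 2.98, and 2.16 RPKM. The fasted genotypes overlapped, and the refed *Lpin1*-/- libraries were below all refed *Lpin1*+/+ libraries (3.27 against 3.37 RPKM at the closest) and below all fasted *Lpin1*-/- libraries. On the log2 scale, refed minus fasted was -1.07 (SE 0.35) in *Lpin1*-/- and 0.03 (SE 0.35) in *Lpin1*+/+ liver, and the responses differed by -1.09 (SE 0.50). The fasted genotypes differed by 0.60 (SE 0.35), and this value ranged from 0.33 without library 2 to 0.96 without library 1 of fasted *Lpin1*-/-. The value for refeeding in *Lpin1*+/+ liver ranged from -0.17 to 0.36 with 1 library left out.

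*Arrdc1* had the lowest level of the 5 genes and its highest values were in the libraries of highest *Adgre1*. The fasted *Lpin1*+/+ libraries had 1.78, 1.65, and 2.17 RPKM, and fasted *Lpin1*-/- libraries had 3.72, 2.32, and 1.43 RPKM. Refed *Lpin1*+/+ libraries had 1.38, 5.81, and 1.19 RPKM, and refed *Lpin1*-/- libraries had 1.07, 1.35, and 1.32 RPKM. The refed *Lpin1*-/- libraries were below all fasted libraries of either genotype, and the other pairs of groups overlapped. Library 2 of refed *Lpin1*+/+ had 19.5 RPKM of *Adgre1* (F4/80, a surface protein of macrophages), 47.2 of *Marco*, and 49.7 of *Cd68*, where the other 2 libraries of its group had at most 1.43, 0.674, and 5.16 RPKM. In that library *Clec4f*, which marks resident Kupffer cells, was at 32.4 RPKM, within the range of its group (22.6 to 37.7). Without it the refed minus fasted difference in *Lpin1*+/+ liver went from 0.20 (SE 0.38) to -0.32, and the refed genotype difference from -0.55 (SE 0.38) to -0.03. The fasted genotype difference went from 0.23 (SE 0.38) to -0.01 without library 1 of fasted *Lpin1*-/-, which had 9.95 RPKM of *Adgre1*. The part of macrophage RNA in the level of *Arrdc1* was not tested.

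**Figure D2:**
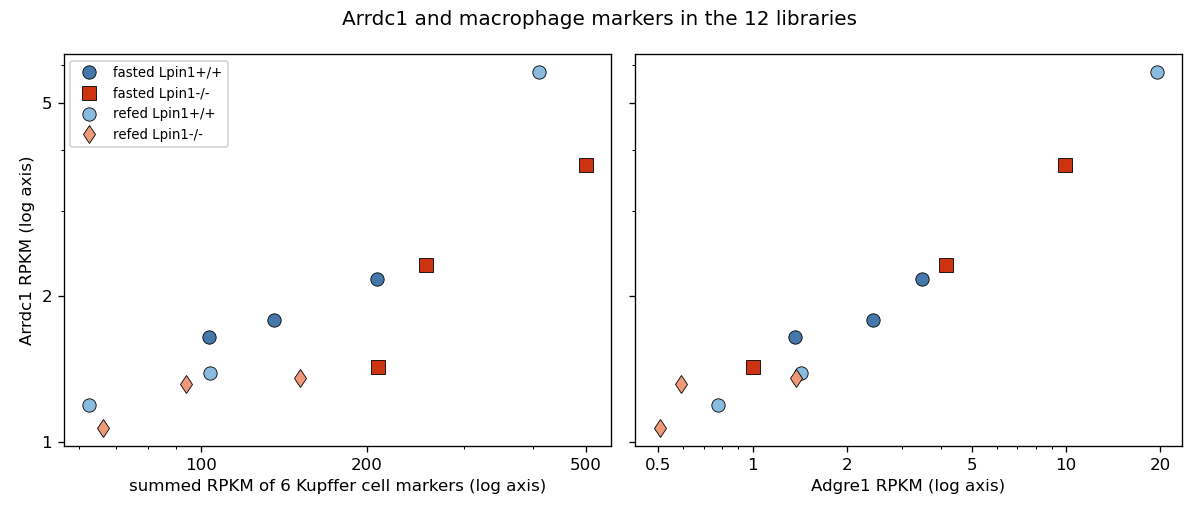
*Arrdc1* RPKM against the summed RPKM of 6 Kupffer cell markers (left) and against *Adgre1* RPKM (right), on log axes, with 1 point for each of the 12 libraries. The libraries of highest *Arrdc1*, with 5.81 and 3.72 RPKM, had the highest *Adgre1*, with 19.5 and 9.95 RPKM.

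Together the 5 genes summed to 67.1 to 130 RPKM in fasted *Lpin1*+/+, 217 to 453 in fasted *Lpin1*-/-, 51.3 to 55.7 in refed *Lpin1*+/+, and 38.7 to 74.9 in refed *Lpin1*-/- libraries. *Txnip* made up 22.0% to 40.9% of the sum in fasted *Lpin1*+/+ and 83.5% to 92.2% in fasted *Lpin1*-/- libraries. *Arrdc3* made up 32.1% to 67.5% and 1.05% to 1.82%, respectively. In refed liver *Txnip* made up 22.0% to 36.5% in *Lpin1*+/+ and 41.6% to 54.0% in *Lpin1*-/-. A sixth family gene, *Arrdc5*, was listed at 0 in all 12 libraries.

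Between genotypes in fasted liver, 3 of the 5 genes were among those past the threshold of the fit over all genes (adjusted p under 0.05, limma), *Txnip* and *Arrdc4* higher and *Arrdc3* lower, where 18.8% of the 11507 genes tested were past it (5.63% higher and 13.2% lower). In refed liver *Arrdc4* alone was past it, higher, where 6.67% of all genes were past it (2.6% higher and 4.07% lower). For refeeding it was *Txnip* alone, lower, in *Lpin1*-/- liver (20.7% of all genes, 17.8% higher and 2.92% lower) and no member in *Lpin1*+/+ liver (1.72%, 1.52% higher and 0.2% lower). For the difference between the responses it was *Txnip* alone, with a negative value (1.28%, 0.791% positive and 0.487% negative). With libraries rescaled by median ratios, the median of all genes for refeeding shifted down by 0.186 in *Lpin1*+/+ liver and by 0.191 in *Lpin1*-/- liver, and higher genes made up 64.0% of those called in *Lpin1*+/+ liver (88.4% before rescaling) and 68.8% in *Lpin1*-/- liver (85.9% before). Between genotypes the share of higher genes went from 29.9% to 41.0% in fasted and from 39.0% to 57.8% in refed liver. The differences of *Txnip*, *Arrdc3*, and *Arrdc4* in these 4 comparisons kept their sign, with 3.42, -3.10, and 1.23 between fasted genotypes, whereas that of *Arrdc2* for refeeding in *Lpin1*+/+ liver turned from 0.03 to -0.15. In *Lpin1*-/- liver the fasted and refed ranges did not overlap for any of the 5 genes, with 4 lower and 1 higher after refeeding, where 46.8% of all genes had ranges apart. The ranges were apart for 1 member in *Lpin1*+/+ liver (18.1% of all genes), for 3 between fasted genotypes (32.9%), and for 2 between refed genotypes (33.9%). The median log2 difference over the 5 genes was 0.60 between fasted genotypes (all genes -0.14), -0.50 between refed genotypes (-0.07), -0.71 for refeeding in *Lpin1*-/- (0.25), and -0.66 for refeeding in *Lpin1*+/+ (0.18). Because these genes were chosen with these values in view, nothing is read from the counts. The comparisons share groups, so their values are not independent of one another.

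**Figure D3:**
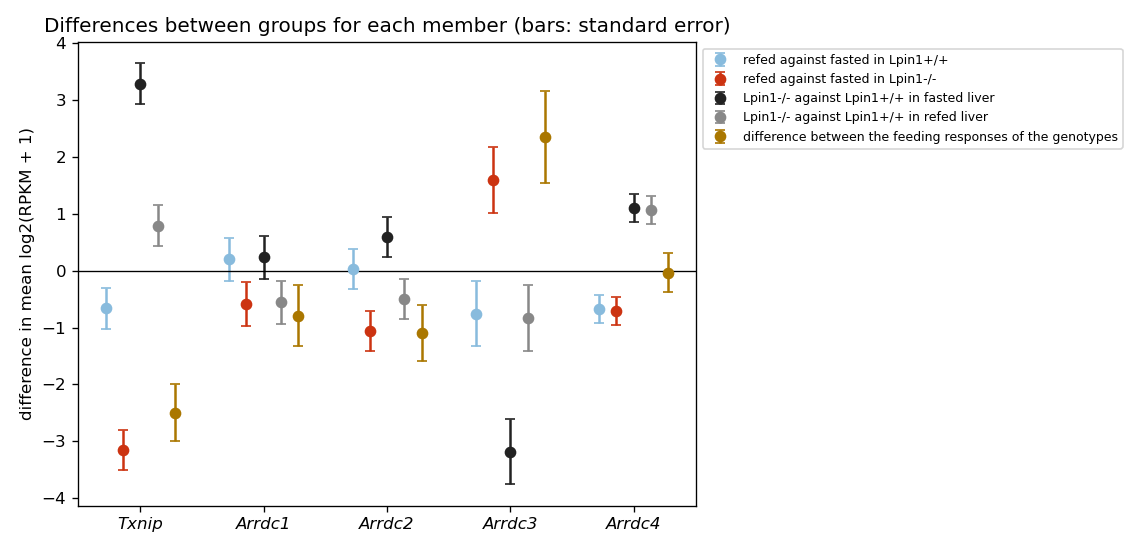
Differences in mean log2(RPKM + 1) between groups for the 5 genes, with 5 comparisons for each and bars of 1 standard error. *Txnip* and *Arrdc3* lay at 3.29 and -3.18 for genotype in fasted liver, and *Arrdc4* at 1.10 in fasted and 1.07 in refed liver.

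The genes most like each member over the 12 libraries were found by Pearson correlation of log2(RPKM + 1), given as a description over libraries that share groups and preparation. For *Txnip* they were *Blm* (r = 0.958), a DNA helicase, *Cdc42ep5* (0.957), a Cdc42 effector, and *Trim63* (0.955), the muscle ubiquitin ligase MuRF1. *Trim63* had a mean of 6.51 RPKM in fasted *Lpin1*-/- liver and 0.0296 to 0.0912 RPKM in the other groups. For *Arrdc3* they were *Oard1* (0.948), *Fgf21* (0.945), a fasting hormone of the liver, and *Ldha* (0.944), lactate dehydrogenase A. *Fgf21* had mean levels of 28.4 and 0.749 RPKM in fasted liver of *Lpin1*+/+ and *Lpin1*-/- mice and of 8.26 and 5.17 RPKM after refeeding. For *Arrdc4* they were *Cep57* (0.960), *Zdhhc20* (0.944), and *Map1lc3b* (0.936), the autophagy protein LC3B, with means of 156 and 378 RPKM in fasted and 104 and 227 RPKM in refed liver (*Lpin1*+/+ first). For *Arrdc2* they were *Rnf39* (0.929), *Fam20a* (0.929), and *Mknk2* (0.910). For *Arrdc1* they were *Adgre1* (0.987), *Fgd2* (0.986), and *Pilrb2* (0.982). Between members, r was 0.835 for *Txnip* and *Arrdc4*, -0.689 for *Txnip* and *Arrdc3*, -0.747 for *Arrdc3* and *Arrdc4*, 0.546 for *Txnip* and *Arrdc2*, and between -0.414 and 0.193 for the other 6 pairs.

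Skipped exon events were not used to choose the genes and were tested, but not all of their ratios are independent of the levels, as given below. An event compares counts of reads that include an exon with counts that skip it, and the log2 ratio of both forms, corrected for their lengths, was compared with limma. The fasted table listed 16 events of the 5 genes, of which 15 had at least 10 counts in every library, and 3 of them passed the threshold (adjusted p under 0.05), where 10.8% of all 69644 events did. All 8 refed events were tested and none passed (limma, 2 at an unadjusted p under 0.05), where 1.03% of 65231 events did. Of 5 events joined over both feeding states, none passed for refeeding in *Lpin1*+/+ (0 of all 28444 events, 0.0%, 1378 at an unadjusted p under 0.05), in *Lpin1*-/- (7.32% of all events), or for the difference between them (0.513%), and none of the 5 had an unadjusted p under 0.05 in any of these. Many of these exons were included in nearly every read. The log2 ratio of an event in which 1 form has no counts is set by the counts of the other form and the 0.5 added, so that it moves with the level of the gene. This holds for the 3 events that passed and for exon 3 of *Txnip* and exon 5 of *Arrdc2* below. The part of the level in them was not tested, so nothing is read from the count of events that passed.

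The exon sequences below are shown because *Arrdc3* held 2 of the 3 events past the threshold and *Arrdc1* had the event with the most counts of the rarer form. Capitals mark the exon and lower case the 15 bases of each neighboring exon in the spliced transcript (GENCODE M21, GRCm38).
Arrdc3 exon 7 of 8 (chr13:80891488-80891642, plus strand): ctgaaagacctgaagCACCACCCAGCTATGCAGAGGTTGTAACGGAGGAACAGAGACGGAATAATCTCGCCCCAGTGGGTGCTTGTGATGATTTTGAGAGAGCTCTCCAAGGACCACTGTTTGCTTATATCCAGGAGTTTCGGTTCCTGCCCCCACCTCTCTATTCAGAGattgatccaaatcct
Arrdc1 exon 2 of 8 (chr2:24927729-24927839, minus strand): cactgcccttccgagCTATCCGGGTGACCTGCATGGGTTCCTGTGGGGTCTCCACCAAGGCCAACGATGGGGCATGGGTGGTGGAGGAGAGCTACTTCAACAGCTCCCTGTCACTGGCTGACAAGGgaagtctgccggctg
Exon 7 of *Arrdc3* has 155 bases, all coding. In fasted liver its log2 ratio of inclusion to skipping was lower in *Lpin1*-/- (difference -5.27, SE 1.07). Fasted *Lpin1*+/+ libraries had 971, 2164, and 4696 inclusion counts and no skipping count, and fasted *Lpin1*-/- libraries had 126, 218, and 307 inclusion counts with 3, 3, and 0 skipping counts. Summed over the libraries, skipping made up 0 of 7831 counts in *Lpin1*+/+, which allows a share of up to 0.0383%, and 6 of 657 counts (0.913%, exact 95% binomial interval 0.336% to 1.98%) in *Lpin1*-/-. These shares of counts are not corrected for length, and the intervals cover counting error only. The length-corrected inclusion was 100% in each *Lpin1*+/+ library and 92.8%, 95.7%, and 100% in *Lpin1*-/- libraries. A longer form of the exon (80891450 to 80891642, 193 bases), annotated in 1 transcript marked for nonsense-mediated decay, shares the skipping counts and gave -5.27 (SE 1.08), with the same limit. The call of either form was lost without the library at place 3 of fasted *Lpin1*+/+ or that at place 1 or 2 of fasted *Lpin1*-/- in the deposited lists, and the library at place 3 of *Lpin1*-/- had no skipping count.

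The third event was an unannotated stretch of 79 bases in the first intron of *Arrdc4* (68747802 to 68747880 on chromosome 7). Fasted *Lpin1*+/+ libraries had 2, 0, and 3 inclusion counts with 129, 116, and 108 skipping counts, and fasted *Lpin1*-/- libraries had no inclusion count with 448, 198, and 349 skipping counts (log2 difference -3.13, SE 0.88). With no inclusion count, the ratio in *Lpin1*-/- is set by the 0.5 added and by the skipping counts, which move with the level of *Arrdc4* used to choose it, so the difference is given as a description. It rested on 5 inclusion counts and was not past the threshold without any 1 of 5 of the 6 libraries. In refed liver the inclusion counts were 2, 1, and 0 in *Lpin1*+/+ and 0 in all 3 *Lpin1*-/- libraries (-3.02, SE 0.78).

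Exon 2 of *Arrdc1* has 111 bases, a multiple of 3, and is coding in its protein-coding transcripts. Fasted *Lpin1*+/+ libraries had 54, 15, and 41 inclusion counts with 0, 2, and 1 skipping counts, and fasted *Lpin1*-/- libraries had 75, 34, and 16 with 12, 5, and 6. Skipping counts were thus 3 of 113 (2.65%, exact 95% binomial interval 0.551% to 7.56%) and 23 of 148 (15.5%, 10.1% to 22.4%). The intervals pool the counts of 3 mice and cover counting error only, not the spread between mice. The length-corrected inclusion was 100%, 74.0%, and 94.0% in *Lpin1*+/+ and 70.4%, 72.1%, and 50.3% in *Lpin1*-/-. The ranges came as close as 74.0% and 72.1%, and the value of 74.0% rests on 15 inclusion and 2 skipping counts. How many of all events have ranges apart was not computed, so nothing is read from the gap. The log2 ratio differed by -2.53 (SE 1.00, adjusted p = 0.135, limma), which did not pass the threshold over all events. In refed liver, skipping counts were 2 of 171 in *Lpin1*+/+ and 5 of 89 in *Lpin1*-/- (-1.33, SE 0.86, adjusted p = 0.539).

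**Figure D4:**
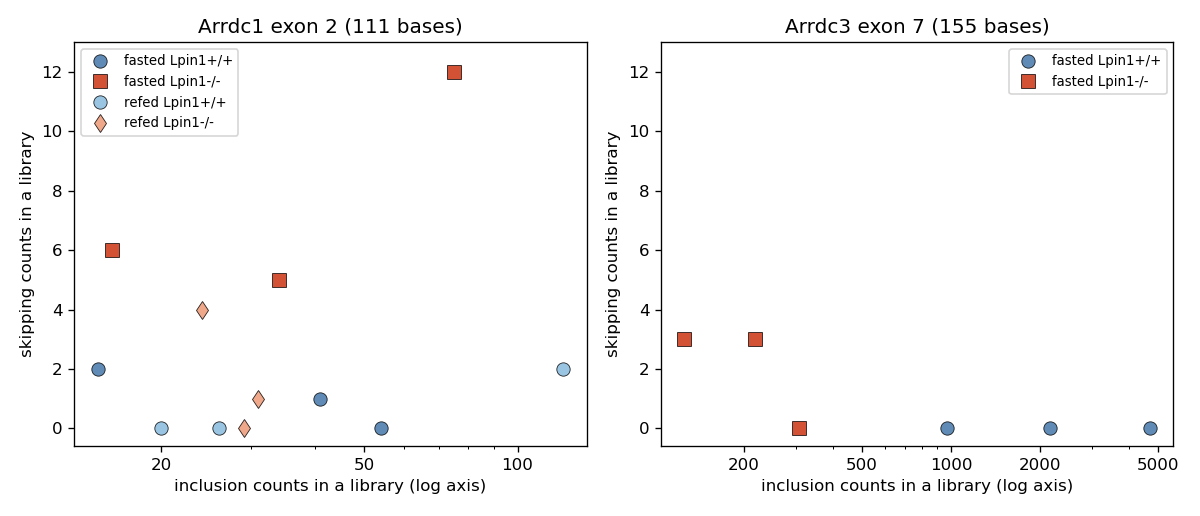
Skipping counts against inclusion counts (log axis) in each library for exon 2 of *Arrdc1* in the 4 groups and exon 7 of *Arrdc3* in fasted liver. Fasted *Lpin1*-/- libraries had 5 to 12 skipping counts of the *Arrdc1* exon, and fasted *Lpin1*+/+ libraries 0 to 2.

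The exons of *Txnip* were included in nearly all reads of both genotypes. For exon 3 (148 bases, 96559070 to 96559217 on chromosome 3), fasted *Lpin1*+/+ libraries had 654, 383, and 649 inclusion counts and fasted *Lpin1*-/- libraries 3914, 4719, and 10399, with 2 skipping counts in all. The log2 ratio differed by 2.63 (SE 0.95, adjusted p = 0.102), which did not pass the threshold. For *Arrdc2*, exon 5 (257 bases) had no skipping count in fasted *Lpin1*+/+ and 1, 3, and 4 in fasted *Lpin1*-/- libraries, 8 of 1086 counts (-1.91, SE 0.75, adjusted p = 0.132, limma). Its length-corrected inclusion was 100% in each *Lpin1*+/+ library and 96.61%, 97.25%, and 95.79% in *Lpin1*-/- libraries. Exon 3 of *Arrdc3* had 6 of 5000 counts skipping in fasted *Lpin1*+/+ and 5 of 427 in fasted *Lpin1*-/- liver (-2.96, SE 1.09, adjusted p = 0.109), and 8 of 2864 and 4 of 1857 in refed liver (0.22, SE 1.04, adjusted p = 0.947). The length-corrected inclusion of that exon in fasted liver was 98.66%, 99.76%, and 99.78% in *Lpin1*+/+ and 90.57%, 94.31%, and 100% in *Lpin1*-/-. In refed libraries it was 97.46% to 100%. These differences of *Arrdc2* and *Arrdc3* did not pass the threshold.

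Genes that act with the family were then followed by list, each list chosen with earlier results of these data known. The thioredoxin system, which *Txnip* restrains, had 14 genes tested. In fasted liver 1 of them fell in *Lpin1*-/- (13.2% of all genes fell), mitochondrial thioredoxin reductase *Txnrd2* (log2 fold change -0.96, SE 0.22, adjusted p = 0.0121, limma), from a mean of 16.7 to 8.16 RPKM, a call lost without library 3 of fasted *Lpin1*+/+ and with only the fasted libraries in the fit (adjusted p up to 0.0604 over 18 alternatives). Refeeding raised 3 of the 14 in *Lpin1*-/- liver, where 17.8% of all genes rose, including the cytosolic reductase *Txnrd1* (1.70, SE 0.33, adjusted p = 0.00595, 23.1 to 73.9 RPKM) and the mitochondrial peroxiredoxin *Prdx3* (1.04, SE 0.19, adjusted p = 0.00402, 79.1 to 165 RPKM), whose call was lost after rescaling by median ratio (0.79, adjusted p = 0.0692). Cytosolic thioredoxin itself (*Txn1*) differed by 0.04 (SE 0.42, adjusted p = 0.961) between fasted genotypes. None passed for refeeding in *Lpin1*+/+ liver (1.72% of all genes), between refed genotypes (6.67%), or for the difference between responses (1.28%). In these comparisons 1, 2, and 2 genes of the list had an unadjusted p under 0.05. The median of the list between fasted genotypes was 0.02, and that of all genes -0.14.

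Among ubiquitin ligases of the NEDD4 family and their adaptors, which the alpha-arrestins recruit, 9 of 11 genes were tested. *Smurf2* fell in fasted *Lpin1*-/- relative to *Lpin1*+/+ liver (-1.09, SE 0.30, adjusted p = 0.0266) and rose on refeeding in *Lpin1*-/- (1.30, SE 0.30, adjusted p = 0.0121), with means of 8.31 and 3.16 RPKM in fasted and 6.78 and 9.32 RPKM in refed liver (*Lpin1*+/+ first). The fall was lost without any 1 of 5 fasted libraries and with only the fasted libraries in the fit (adjusted p up to 0.0878). The other 8 genes did not pass in any comparison. Of all genes, 18.8% passed between fasted genotypes and 20.7% for refeeding in *Lpin1*-/- liver. The shares were 6.67% between refed genotypes, 1.72% for refeeding in *Lpin1*+/+ liver, and 1.28% for the difference between responses. The list median between fasted genotypes was -0.37, and that of all genes -0.14. *Nedd4* itself differed by -1.32 (SE 0.53, adjusted p = 0.107) between fasted genotypes.

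Of the ESCRT machinery, with which Arrdc1 buds vesicles, 11 of 12 genes were tested. Between fasted genotypes *Vps37b*, a subunit of ESCRT-I, rose (1.38, SE 0.28, adjusted p = 0.00688, 6.49 to 19.0 RPKM) and *Vps4b*, an ATPase that disassembles ESCRT-III, fell (-0.81, SE 0.25, adjusted p = 0.0418, 16.8 to 8.96 RPKM). Refeeding in *Lpin1*-/- liver had the reverse directions, -1.02 (SE 0.28, adjusted p = 0.026) and 0.87 (SE 0.25, adjusted p = 0.0298), and *Vps4a* also rose. Of all genes, 5.63% rose and 13.2% fell between fasted genotypes, and 17.8% rose and 2.92% fell for refeeding in *Lpin1*-/- liver. *Tsg101*, the direct partner of Arrdc1, differed by 0.00 between fasted genotypes (adjusted p = 0.990). The fall of *Vps4b* between fasted genotypes was lost in 11 of 18 alternatives (limma, adjusted p up to 0.126). On refeeding, the rise of *Vps4b* and the fall of *Vps37b* were each lost in 5 of 18. Of other genes of the arrestin fold, 5 of 8 were tested. None passed in any of the 5 comparisons (0 to 2 at an unadjusted p under 0.05), where 1.28% to 20.7% of all genes passed. *Arrb1* differed by -0.10 (SE 0.32) and *Arrb2* by 0.27 (SE 0.35) between fasted genotypes.

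The Mondo factors and genes that respond to carbohydrate were followed next. The part of the Mondo factors in the level of *Txnip* was not tested. Of 17 genes, 4 fell and 1 rose in fasted *Lpin1*-/- relative to *Lpin1*+/+ liver, where 13.2% of all genes fell and 5.63% rose. *Fgf21* fell (-3.90, SE 0.59, adjusted p = 0.00155), as did *Gpd1*, *Tkfc*, and *Pklr*, the liver pyruvate kinase, and *Thrsp* (Spot 14), a gene of lipogenesis, rose (4.05, SE 0.58, adjusted p = 0.00133) from 23.8 to 417 RPKM. *Mlxipl* differed by -0.17 (SE 0.34, adjusted p = 0.763) and *Mlxip* by 0.59 (SE 0.30, adjusted p = 0.190). Refeeding raised 8 of the 17 genes in *Lpin1*-/- liver and lowered none, where 17.8% of all genes rose and 2.92% fell. The largest rises were in *Tkfc* (2.80, SE 0.45, adjusted p = 0.00217) and *Pklr* (2.63, SE 0.42, adjusted p = 0.00214, 7.61 to 57.3 RPKM). *Mlx* and *Mlxipl* were among the 8 (1.26 and 1.43). In *Lpin1*+/+ liver, where 1.52% of all genes rose, only *Thrsp* rose (2.68, SE 0.58, adjusted p = 0.045), a call lost in 14 of 18 alternatives. The medians of the list were 0.05 between fasted genotypes, 1.14 for refeeding in *Lpin1*-/-, and 0.21 for refeeding in *Lpin1*+/+, where those of all genes were -0.14, 0.25, and 0.18.

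**Figure D5:**
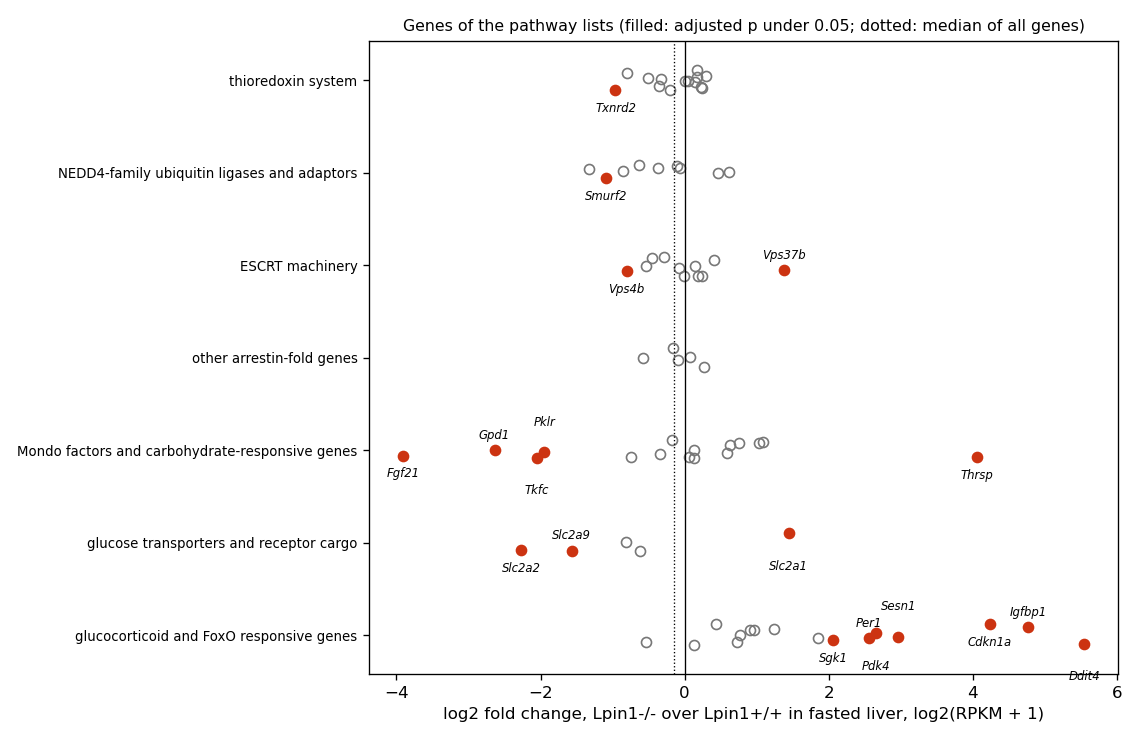
Log2 fold changes between genotypes in fasted liver (*Lpin1*-/- over *Lpin1*+/+) for the tested genes of 7 lists, 1 point for each gene, with 2 genes not shown. Filled points passed the threshold, and the dotted line is the median of all genes (-0.14). The 7 filled points of the glucocorticoid and FoxO list lay to the right, from 2.07 to 5.54.

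The transporters and receptors that alpha-arrestins act upon had 6 of 10 genes tested. In fasted *Lpin1*-/- liver *Slc2a1* (GLUT1), which Txnip removes from the cell surface, rose (1.44, SE 0.38, adjusted p = 0.0226). *Slc2a2* (GLUT2), the main glucose transporter of hepatocytes, fell (-2.27, SE 0.34, adjusted p = 0.00158), from 73.0 to 14.2 RPKM, and *Slc2a9*, a urate transporter, fell (-1.57, SE 0.23, adjusted p = 0.00145). In refed liver *Slc2a9* fell as well (-1.61, SE 0.23, adjusted p = 0.00341, 11.6 to 3.13 RPKM). Of all genes, 5.63% rose and 13.2% fell between fasted genotypes, and 4.07% fell between refed genotypes. None of the 6 passed for refeeding in *Lpin1*+/+ or *Lpin1*-/- liver (0 and 2 at an unadjusted p under 0.05), where 1.72% and 20.7% of all genes passed. *Insr* differed by -0.81 (SE 0.55, adjusted p = 0.334) between fasted genotypes.

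Genes that respond to glucocorticoids and FoxO factors, both known to act on *Txnip*, had 16 members tested. Between fasted genotypes 7 of the 16 rose and none fell, where 5.63% of all genes rose and 13.2% fell, and the list median was 1.55, where that of all genes was -0.14. Since the list was chosen with these results known, nothing is read from this count. *Ddit4*, an inhibitor of mTORC1, had 13.5 RPKM in fasted *Lpin1*+/+ and 426 RPKM in fasted *Lpin1*-/- liver (5.54, SE 0.86, adjusted p = 0.00178), and *Igfbp1*, an insulin-repressed binding protein, 122 and 3020 RPKM (4.77, SE 1.02, adjusted p = 0.00905). *Cdkn1a* (4.24), *Sesn1* (2.97), *Pdk4* (2.65), *Per1* (2.55), and *Sgk1* (2.07) were the others. Refeeding lowered 5 of them in *Lpin1*-/- liver (2.92% of all genes fell), among them *Igfbp1*, which changed by -4.19 (SE 1.02, adjusted p = 0.0156), and *Ddit4*, by -3.80 (SE 0.86, adjusted p = 0.0111). It lowered none of the 16 in *Lpin1*+/+ liver (0.2% of all genes fell), where 2 had an unadjusted p under 0.05. The call of *Igfbp1* on refeeding was lost without library 2 or library 3 of refed *Lpin1*-/- (adjusted p up to 0.0703). The glucocorticoid targets *Fkbp5* (0.91, SE 0.84, adjusted p = 0.489) and *Tsc22d3* (0.44, SE 0.46, adjusted p = 0.544) did not pass between fasted genotypes. The 9 genes that did not pass also held *Pck1* (-0.54), *G6pc* (0.12), *Klf9* (0.72), *Irs2* (0.77), *Klf15* (0.97), *Zbtb16* (1.24), and *Tat* (1.86). Their adjusted p (limma) ran from 0.0697 for *Klf15* to 0.923 for *G6pc*. Of the 16 differences, 15 were above 0. For the difference between the feeding responses, *Sesn1*, a stress-induced inhibitor of mTORC1, passed (-3.47, SE 0.47, adjusted p = 0.00913), with means of 3.16 and 32.1 RPKM in fasted and 3.61 and 2.23 RPKM in refed liver (*Lpin1*+/+ first).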

How the data were processed

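In the deposited files, RPKM was given for each gene and library by the authors, who aligned paired 69-base reads to GRCm38 with HISAT2 (2.0.5 in the submitters' processing notes) and used htseq-count. Skipped exon events came from rMATS, and the authors deposited their inclusion and skipping counts as lists of 3 libraries per group without replicate numbers. Columns of the authors' own tests (p-values, inclusion differences) were not used, nor were their tables of selected events and terms. Gene lengths behind RPKM and the strand setting are not given in the sources used here.

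Values were fitted as log2(RPKM + 1) in 1 limma model (3.58.1 under R 4.3.3) that held all 4 groups and a variance trend, for the 11507 genes whose mean was 0.5 RPKM or more. Adjustment was by the method of Benjamini and Hochberg over these genes, with a threshold of 0.05. Fold changes on this scale understate those of low genes. For events, limma was run where every library had 10 counts or more, with 0.5 added to each count. List groups were set by equal counts in the feeding table (1523 of 1523 and 1719 of 1719 events). The fits were tested on simulated data. The simulated events had at least 50 counts in every library and neither form was rare. They thus do not cover events in which 1 form has counts near 0, such as those that passed. Python 3.11.15, pandas 2.3.3, and matplotlib 3.10.9 were used.

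The members and lists were chosen with earlier results of these data known. For each list and comparison, the 2 genes of largest change past the threshold with libraries that do not overlap were named, and further list genes were named after their values were seen. The 3 genes most correlated with each member were also named. The results of 2 list genes are not reported here. Libraries were not paired by replicate number in the main fit. Other settings tried were adding 0.1 in place of 1, keeping every gene, a stricter filter (5 RPKM), rescaling by median ratio, the replicate number as a block, a fit of the compared libraries alone, and leaving out each library. For events they were minimums of 20 or 50 counts, adding 1 in place of 0.5, a variance trend, and joined events of all 12 libraries.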

Additional observations from a re-analysis of the deposited data

Results flagged for a closer look

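The feeding responses of the genotypes differed, by the test of the difference itself over all genes (limma), for 2 list genes, where 1.28% of all genes passed. *Gpd1*, glycerol-3-phosphate dehydrogenase, had a log2 difference of 2.29 (2.285, SE 0.42, adjusted p = 0.0316), with means of 135 RPKM in fasted and 156 in refed *Lpin1*+/+ liver and 20.7 in fasted and 123 in refed *Lpin1*-/- liver. Its adjusted p ranged from 0.0156 to 0.101 over 17 alternatives and was past the threshold in 8 of them. *Sesn1* had a difference of -3.47 (-3.473, SE 0.47, adjusted p = 0.00913), with means of 3.16 and 3.61 RPKM in *Lpin1*+/+ and 32.1 and 2.23 in *Lpin1*-/- liver, and it stayed past the threshold in all 17 alternatives (adjusted p 0.00362 to 0.0383).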

How the results depend on the processing

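Of 435 values of member differences under the alternatives, 434 moved by less than the spread between replicates. Many of these values could not move. A change of filter, the replicate block, and a fit of the compared libraries alone leave a difference of group means as it was. Leaving out a library outside the compared groups does so too. *Txnip* for refeeding in *Lpin1*+/+ liver, for example, was -0.658 under each of these. The counts of values moved or turned in sign are thus not a measure of robustness. The sign turned in 0 of 89 values of *Txnip*, 0 of 89 of *Arrdc3*, 2 of 84 of *Arrdc1*, 4 of 84 of *Arrdc2*, and 5 of 89 of *Arrdc4*, the last all for its difference between responses (-0.03). The value that moved further was the difference between the feeding responses of *Arrdc1* (-0.79), which ranged from -1.08 to -0.26 with 1 library left out and was -0.26 without library 2 of refed *Lpin1*+/+. For *Txnip* between fasted genotypes the range was 2.90 to 3.51, and for *Arrdc3* -3.67 to -2.68.

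The 3 member events called in fasted liver were 5 with 1 added to each count and 1 in the joined events of all 12 libraries, where fewer events were tested. With 1 library left out the count was 0 to 3, being 0 without place 3 of fasted *Lpin1*+/+ or place 2 of fasted *Lpin1*-/- and 1 without place 1 of fasted *Lpin1*-/-.

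Genes called for refeeding in *Lpin1*+/+ (198) were 50 after rescaling and 0 with only the libraries compared (limma), and 23 to 229 with 1 library left out. Between fasted genotypes (2168) they were 1011 with only the libraries compared and 1037 to 2313 with 1 left out, the lowest without library 3 of fasted *Lpin1*+/+. Between refed genotypes (767) they were 242 to 1046, and for refeeding in *Lpin1*-/- (2382) 1122 to 3108. For the difference between responses (147) they were 83 without a filter, 321 after rescaling, and 30 to 191 with 1 left out. Pathway list genes called for refeeding in *Lpin1*+/+ (1) were 0 without a filter, after rescaling, and with only the libraries compared, and 0 to 1 with 1 left out. Between refed genotypes (2) they were 5 with a mean of at least 5 RPKM, 4 after rescaling, 5 with only the libraries compared, and 1 to 7 with 1 left out. For the difference between responses (2) they were 4 with a pseudocount of 0.1, 1 without a filter, 4 with at least 5 RPKM, 7 after rescaling, and 1 to 5 with 1 left out. For refeeding in *Lpin1*-/- (20) they were 11 to 28 with 1 left out, being 11 without library 2 and 13 without library 3 of refed *Lpin1*-/-. The causes were not tested.

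The main fit did not pair libraries by replicate number. Deviations of same-numbered libraries correlated between -0.474 and 0.743 (median 0.0335, over 0.1 in 8 of 18 pairs). The values were 0.39 to 0.743 for fasted *Lpin1*+/+ with refed *Lpin1*-/- and -0.474 to -0.226 for fasted *Lpin1*+/+ with fasted *Lpin1*-/-. Libraries of different numbers were not compared, so whether the number marks a shared factor was not tested. With the number as a replicate block, genes called were 93 for refeeding in *Lpin1*+/+ and 81 for the difference between responses, and list genes called were 0 for refeeding in *Lpin1*+/+, 1 between refed genotypes, and 1 for the difference. No paired analysis was possible for exon events because their lists carry no replicate numbers. Depth differed little between libraries, and the spread between 3 mice and, for exon events, skipping counts near 0 limit the precision.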
